A study of Mus musculus with 12 samples.

Results

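10 genes of the VEGF and TIE systems were followed through ribosome-bound mRNA of tumours, out of 24421 gene symbols in the count table. They were taken by symbol. The 5 receptors are Kdr (VEGFR2), Flt1 (VEGFR1), Flt4 (VEGFR3), Tek (TIE2) and Tie1, and the 5 ligands are Vegfa, Vegfb, Vegfc, Pgf and Angpt1. All 10 had enough counts to be tested, among 13534 genes that passed a filter on low counts. Angpt1 passed it mainly through B16F10 libraries.

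The tumours were those of the highly metastatic mouse melanoma line B16F10 (n = 7 libraries) and of the poorly metastatic line B16F0 (n = 5). Both lines were grown under the skin of C57BL/6 hosts of the genotype Rpl22fl/flHA;Cdh5(PAC)-CreERT2 for 12 days, and all hosts of both groups received tamoxifen. Tamoxifen activates Cre in cells that use the Cdh5 promoter, which puts an HA tag on the ribosomal protein Rpl22 there, so that precipitating the tag enriches mRNA on ribosomes of vessel cells. Tumour cells come from the injected line and do not carry the tag. The labels do not give the age of hosts or state their sex, and they do not name a clone of either line. They also do not say whether libraries of a group came from separate animals or pools. A p-value therefore reflects only how much these libraries varied, which may be technical.

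VEGF ligands are secreted growth factors that act on receptor tyrosine kinases of endothelial cells and drive the growth and leakiness of vessels. Vegfa acts through Kdr and Flt1, Pgf and Vegfb bind Flt1, and Vegfc acts through Flt4, the receptor best known from lymphatic vessels. Angpt1 activates Tek and stabilises vessels, and Tie1 is a partner of Tek with no well-established ligand of its own. In tumours the ligands are commonly made by tumour and stromal cells and the receptors by vessels.

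The upstream sequences of 3 receptors and 2 ligands are shown because the results turn on these genes: the receptors passed the call for following endothelial content, Vegfa had the highest level when scaled by exon length and Vegfb was called between the lines. Each is the 250 bases before the RefSeq start (GRCm38.p6), read 5′ to 3′ on the strand of the gene, with matches to GGAA on either strand (GGAA or TTCC) in capitals. GGAA is the core of sites bound by ETS factors, a family that includes regulators of endothelial genes. RefSeq promoters matched 9 of the 10 genes, and Angpt1 had no entry. Kdr lies at chr5:75978456-75978705 (- strand), Flt1 at chr5:147726012-147726261 (-), Tek at chr4:94739039-94739288 (+), Vegfa at chr17:46032378-46032627 (-) and Vegfb at chr19:6987652-6987901 (-).
Kdr: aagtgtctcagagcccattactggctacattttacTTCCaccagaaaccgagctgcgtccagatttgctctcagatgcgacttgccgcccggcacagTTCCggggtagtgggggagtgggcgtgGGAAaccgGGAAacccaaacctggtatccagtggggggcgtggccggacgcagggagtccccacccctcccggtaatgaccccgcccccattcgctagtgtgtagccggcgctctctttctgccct
Flt1: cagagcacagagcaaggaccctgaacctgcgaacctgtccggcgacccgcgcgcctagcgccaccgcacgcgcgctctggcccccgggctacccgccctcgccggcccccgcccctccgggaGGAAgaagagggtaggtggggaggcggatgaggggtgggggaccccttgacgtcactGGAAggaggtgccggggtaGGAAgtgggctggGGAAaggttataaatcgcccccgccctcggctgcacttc
Tek: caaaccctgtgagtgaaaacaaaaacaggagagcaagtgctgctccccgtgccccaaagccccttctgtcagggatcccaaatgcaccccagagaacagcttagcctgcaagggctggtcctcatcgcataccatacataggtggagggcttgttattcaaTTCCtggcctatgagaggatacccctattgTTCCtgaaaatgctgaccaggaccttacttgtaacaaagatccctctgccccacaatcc
Vegfa: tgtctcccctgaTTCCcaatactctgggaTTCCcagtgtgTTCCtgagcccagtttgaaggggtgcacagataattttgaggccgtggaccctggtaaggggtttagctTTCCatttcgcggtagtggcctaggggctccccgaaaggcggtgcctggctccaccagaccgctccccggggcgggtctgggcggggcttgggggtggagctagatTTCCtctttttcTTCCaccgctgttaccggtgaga
Vegfb: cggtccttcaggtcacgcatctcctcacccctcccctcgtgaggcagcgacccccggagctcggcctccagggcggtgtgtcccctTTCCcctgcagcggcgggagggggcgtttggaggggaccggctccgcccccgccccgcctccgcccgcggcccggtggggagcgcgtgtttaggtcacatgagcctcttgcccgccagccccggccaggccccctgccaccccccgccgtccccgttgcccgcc

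GGAA or TTCC occurred 4 times in the window of Kdr, 4 in Flt1, 2 in Flt4, 2 in Tek and 7 in Tie1, and 6 times in Vegfa, 1 in Vegfb, 1 in Vegfc and 0 in Pgf. A match was present in 93.4% of 32851 promoter windows of this length, with a median of 3, and 54.7% had at least 3. The counts of receptors and ligands overlapped. The core of hypoxia response elements was searched as ACGTG and GCGTG on both strands. ACGTG was in none of the 9 windows and in 16.6% of all windows, and GCGTG was found in Kdr (2 matches), Flt1 (1), Vegfb (2) and Pgf (1) and in 28.2% of all windows. A match is a run of letters and does not show binding.

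Library totals ran from 5322510 to 20569186 counts in B16F10 and from 10753106 to 17381336 in B16F0. The libraries were spread over 3 sequencing lanes, each with both lines. On lane 2 both B16F10 libraries carry one name prefix and the B16F0 library another, so line and prefix cannot be told apart there. Reads of Ddx3y, a gene of the Y chromosome, split both lines: 4 B16F10 libraries held 13.5 to 29.2 CPM and 3 held at most 0.121 CPM, while 3 B16F0 libraries held 8.70 to 78.1 CPM and 2 held at most 0.181 CPM. Library names on lanes 1 and 2 carry a letter F or M before the line, which the labels do not explain. Those with F held at most 0.181 CPM of Ddx3y. Those with M were B16F10 replicate 2 at 27.7 CPM and B16F0 replicate 3 at 78.1 CPM. Names on lane 6 carry no such letter, and all libraries there held 8.70 to 29.2 CPM, so Ddx3y reads and lane are not independent. Levels are given as CPM, read counts scaled to a common library size by TMM. The endothelial cadherin Cdh5 and the endothelial adhesion molecule Pecam1 were used as the measure of endothelial content, and their mean log2 CPM is called the endothelial index. The index averaged 7.45 ± 1.11 in B16F10 and 7.55 ± 1.14 in B16F0 (SD, n = 7 and 5), a difference of -0.10 (exact permutation test, two-sided, p = 0.874 over 792 splits and p = 0.861 over 180 splits within lanes). It was -0.12, -0.55 and 0.48 in lanes 1, 2 and 6. B16F10 replicates 4 and 5 and B16F0 replicate 3 stood apart with 482 to 764 CPM of Cdh5, while the other 9 held 78.6 to 206 CPM. The 10 melanocytic markers summed to 10250 to 22254 CPM in B16F10 and 12528 to 22319 CPM in B16F0, so the precipitates of all libraries also held transcripts of the pigment cell lineage. The ribosomal RNA precursor Rn45s took 31.4% of counts in B16F10 replicate 5 and 8.91% in B16F0 replicate 5.

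The most abundant ligand and the most abundant receptor of the 10 stood far apart from Angpt1. Scaled by exon length, Vegfa had the highest level of the 10 genes at 59.8 ± 28.2 CPM per kb (mean ± SD over 12 libraries), and Kdr came next at 34.2 ± 36.6 CPM per kb. For comparison Cdh5 was at 63.6 ± 57.7 CPM per kb. Below them came Vegfb at 25.1 ± 6.48, Tie1 at 14.9 ± 14.2, Flt1 at 13.5 ± 12.97, Flt4 at 10.002 ± 8.90, Pgf at 8.11 ± 2.97, Tek at 6.15 ± 5.69 and Vegfc at 4.49 ± 0.79 CPM per kb. Angpt1 was lowest at 0.263 ± 0.243 CPM per kb, and it was the only gene of the order that lay below its upper neighbour in 12 of 12 libraries. Angpt2, another angiopoietin and outside the 10, averaged 55.3 ± 46.8 CPM per kb in B16F10 and 64.8 ± 68.4 CPM per kb in B16F0. Vegfa exceeded Kdr in 10 of 12 libraries. All the other neighbours lay within their spread: the order held in 3 of 12 libraries for Kdr over Vegfb, 9 for Vegfb over Tie1, 6 for Tie1 over Flt1, 9 for Flt1 over Flt4, 6 for Flt4 over Pgf, 7 for Pgf over Tek and 6 for Tek over Vegfc.

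**Figure D1:**
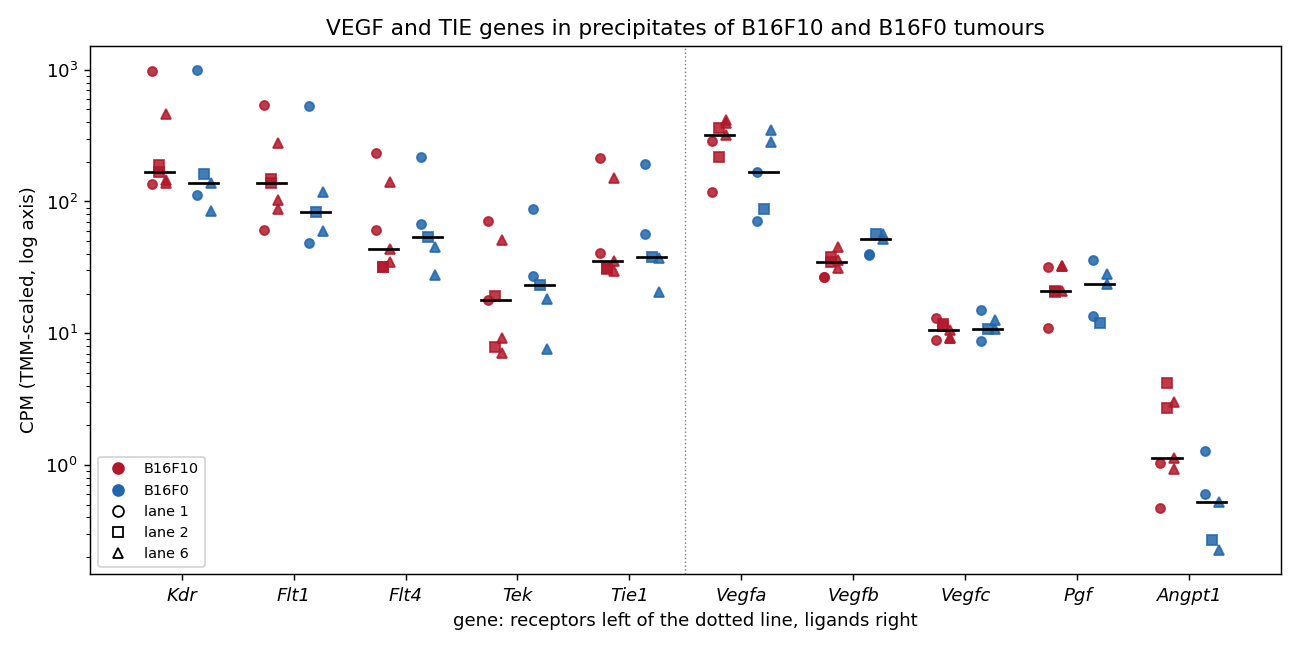
Level of each gene in every library, in CPM on a log axis, with B16F10 left of B16F0 for each gene, a black bar at the median of the group and the marker shape giving the sequencing lane. The receptors spread widely, with Kdr at 463 to 996 CPM in the 3 Cdh5-rich libraries and 84.6 to 188 CPM in the other 9, while Vegfb and Vegfc stay within a narrow band.

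All 5 receptors rose with endothelial content by the call defined below, and 0 of the 5 ligands passed it. Kdr, the main signalling receptor for VEGF in vessels, is encoded at chr5:75932827-75978458 on the - strand (coordinates of whole genes here are GRCm38, GENCODE M21). Kdr had 167, 188, 135, 974, 463, 139 and 145 CPM in B16F10 replicates 1 to 7, against 161, 113, 996, 138 and 84.6 CPM in B16F0 replicates 1 to 5. The highest libraries were B16F10 replicates 4 and 5 and B16F0 replicate 3, those richest in Cdh5, and the lines overlapped. Flt1, a receptor that binds VEGF tightly and signals weakly (chr5:147561604-147726011, -), had 149, 137, 60.5, 539, 278, 102 and 88.2 CPM in B16F10, against 83.0, 48.1, 530, 118 and 60.04 CPM in B16F0. The same 3 libraries were highest. In bulk precipitates, fewer cells of a type and less RNA per cell cannot be told apart.

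The slope of log2 expression per log2 unit of the index, fitted with lane and line in the model, was 1.08 ± 0.11 for Kdr (SE; 95% interval 0.83 to 1.33; edgeR quasi-likelihood adjusted p = 0.000132). A slope of 1 means that a gene varied in proportion to the index. Flt1 had a slope of 1.14 ± 0.15 (0.81 to 1.47, edgeR adjusted p = 0.000654). A gene followed the index where its slope exceeded 0.5 with an adjusted p below 0.05, as 3.18% of all tested genes did, and it ran against the index below -0.5, as 0.0222% did. All 5 receptors followed it and 0 of 5 ligands did, and 0 members ran against it, by edgeR and likewise by DESeq2 and limma-voom. The median slope of all tested genes was -0.00041.

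Flt4, Tek and Tie1 followed the index too. Flt4 (chr11:49609263-49652739, +) had 31.7, 32.1, 61.2, 233, 142, 43.6 and 34.6 CPM in B16F10, against 53.5, 67.0, 217, 45.3 and 27.6 CPM in B16F0, and a slope of 0.85 ± 0.071 (0.70 to 1.01, edgeR adjusted p = 5.09e-05). Tek (chr4:94739289-94874976, +) had 7.86, 19.3, 17.9, 71.0, 51.4, 9.27 and 7.05 CPM in B16F10, against 23.1, 27.2, 88.0, 18.0 and 7.65 CPM in B16F0, and a slope of 1.00 ± 0.11 (0.75 to 1.25, adjusted p = 0.000213). Tie1 (chr4:118471191-118490061, -) had 30.8, 31.2, 40.4, 214, 151, 35.3 and 29.5 CPM in B16F10, against 37.7, 57.1, 193, 37.5 and 20.6 CPM in B16F0, and a slope of 0.96 ± 0.082 (0.79 to 1.14, adjusted p = 5.09e-05). In each of these receptors the highest 3 libraries were again the Cdh5-rich ones, and the lines overlapped. As Flt4 is also a lymphatic gene, lymphatic markers are given beside it: 5 tested markers and Ccl21a, which was at 0 in all libraries, summed to 35.6 to 53.0 CPM in B16F10 and 47.5 to 114 CPM in B16F0, and 0 of the 5 followed the index. Pdpn made up most of this sum, at 25.7 CPM of a mean 44.0 in B16F10 and 35.3 CPM of a mean 66.2 in B16F0. Its slope was -0.30 (edgeR adjusted p = 0.0338), short of the call for running against the index. The part of the lymphatic markers in the level of Flt4 was not tested.

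Relative to Cdh5 all 5 receptors varied less across libraries than they did in CPM, while all 5 ligands varied more. As Cdh5 is part of the index, this restates the slopes in other units and is no separate support. For every 100 counts of Cdh5 there were 89.4 to 184 counts of Kdr in B16F10 and 78.1 to 130 in B16F0, with medians of 128 and 83.3. Between the highest and the lowest of the 12 libraries, Kdr in CPM differed 11.8-fold, and per Cdh5 count 2.36-fold. The same 2 folds were 11.2 and 3.22 for Flt1, 8.44 and 2.15 for Flt4, 12.5 and 3.32 for Tek, and 10.3 and 2.30 for Tie1. For Vegfa, by contrast, the span was 5.81-fold in CPM and 22.5-fold per Cdh5 count, and for Vegfb 2.13-fold and 14.1-fold. Vegfc spanned 1.72-fold and 6.36-fold, Pgf 3.27-fold and 6.46-fold, and Angpt1 18.6-fold and 45.1-fold.

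**Figure D2:**
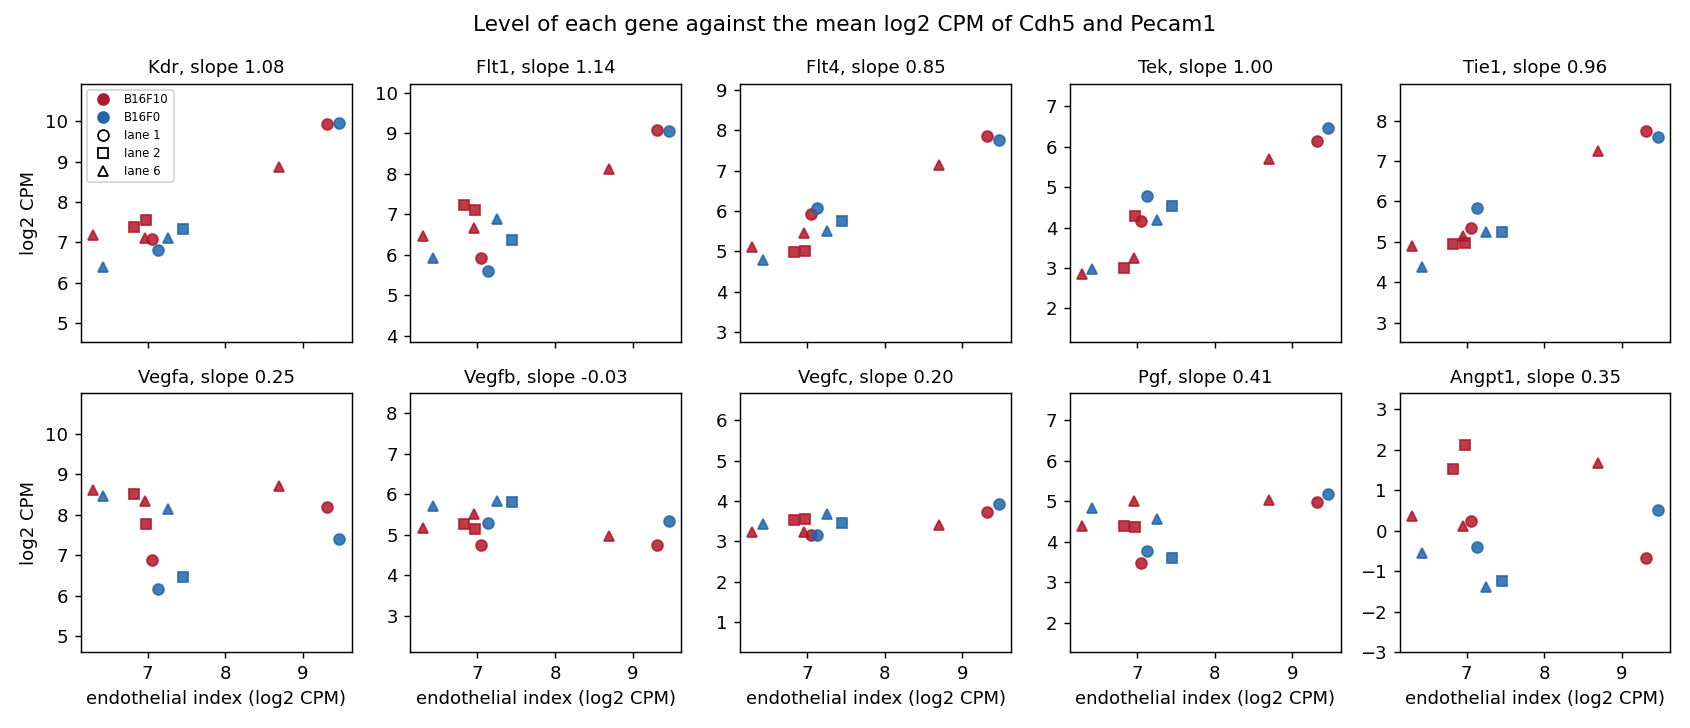
Level of each gene in log2 CPM against the endothelial index, the mean log2 CPM of Cdh5 and Pecam1, with 1 point per library, colour for the line, shape for the lane and the fitted slope over each panel. The receptors in the upper row climb with slopes of 0.85 to 1.14, and the ligands in the lower row have slopes of -0.03 to 0.41.

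The ligands had slopes between -0.03 and 0.41. Pgf, placental growth factor, which binds Flt1, had the steepest of them at 0.41 ± 0.13 (0.13 to 0.69, edgeR adjusted p = 0.114). Angpt1 had 0.35 ± 0.30 (-0.31 to 1.01, adjusted p = 0.557), Vegfa 0.25 ± 0.16 (-0.10 to 0.61, adjusted p = 0.425) and Vegfc 0.20 ± 0.085 (0.011 to 0.38, adjusted p = 0.255). Vegfb had the flattest at -0.029 ± 0.068 (-0.18 to 0.12, adjusted p = 0.842). The interval of Angpt1 overlapped those of the receptors, and slopes of receptors and ligands were not tested against each other.

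The receptor slopes rest largely on the 3 Cdh5-rich libraries. Without B16F10 replicates 4 and 5 and B16F0 replicate 3, 0 genes followed the index, of all those tested, and the 5 receptors had slopes of 0.47 for Kdr, 0.63 for Flt1, 0.80 for Flt4, 1.2 for Tek and 0.67 for Tie1, all positive, with edgeR adjusted p = 0.944 for each. The 95% intervals lay above 0 for Flt4 (0.18 to 1.42, unadjusted p = 0.0171) and Tek (0.18 to 2.22, unadjusted p = 0.0264). Among the ligands, Vegfa then had a slope of -0.74, Vegfb 0.25, Vegfc 0.10, Pgf -0.12 and Angpt1 -1.41, none of them called.

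**Figure D3:**
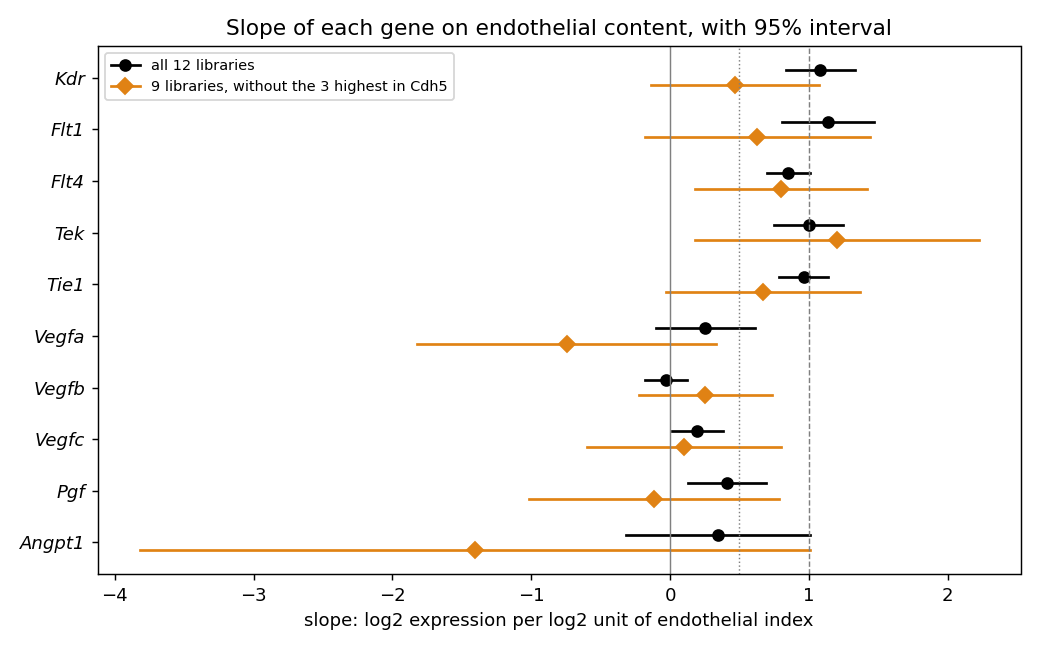
Slope of each gene on the endothelial index with its 95% interval, for all 12 libraries (black) and for 9 libraries without the 3 highest in Cdh5 (orange). The dotted line marks the slope of 0.5 used in the call and the dashed line a slope of 1. The receptors stay at positive slopes of 0.47 to 1.2 in the smaller set, with wider intervals.

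Between the tumour lines 1 of the 10 genes passed the test. Vegfb was lower in B16F10 and no receptor passed, against 2.77% of all genes called in either direction, 1.3% called higher and 1.47% called lower. The lines of no member were fully separated in CPM over all libraries, which held for 1.27% of tested genes with B16F10 higher and 1.46% with B16F10 lower. DESeq2 and limma-voom gave the same count for the members, 0 higher and 1 lower. The median log2 fold change of the 10 was 0.33 (B16F10 over B16F0), against 0.019 for all genes tested.

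Among receptors, Kdr averaged 316 ± 312 CPM over the B16F10 libraries and 299 ± 391 CPM over those of B16F0 (SD, n = 7 and 5), and its fold change on the log2 scale was 0.50 ± 0.58 (SE; 95% interval -0.76 to 1.76; edgeR adjusted p = 0.758). Flt1 averaged 193 ± 168 and 168 ± 204 CPM in the same groups (0.54, -0.77 to 1.84, adjusted p = 0.748). Flt4 averaged 82.5 ± 76.9 CPM in B16F10 and 82.1 ± 76.9 CPM in B16F0 (0.22, -0.80 to 1.25, adjusted p = 0.885). For Tek the means were 26.2 ± 25.0 CPM in B16F10 and 32.8 ± 31.7 CPM in B16F0 (-0.018, -1.27 to 1.23, adjusted p = 0.993), and for Tie1 76.0 ± 75.0 and 69.2 ± 70.5 CPM (0.45, -0.73 to 1.62, adjusted p = 0.772). The spread between libraries was as large as the means, so differences of about 1 on the log2 scale lay inside the intervals of all 5 receptors.

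With the endothelial index in the fit the intervals narrowed. At equal index Kdr had a log2 fold change of 0.46 (0.016 to 0.90; unadjusted p = 0.0434, edgeR adjusted p = 0.270) and Flt1 of 0.49 (-0.071 to 1.05, adjusted p = 0.362). Flt4 was at 0.11 (-0.18 to 0.39, adjusted p = 0.746), Tek at -0.23 (-0.69 to 0.23, adjusted p = 0.639) and Tie1 at 0.24 (-0.097 to 0.57, adjusted p = 0.483). No receptor was called at equal index, where 3.7% of all genes were called in either direction. The slopes of the 2 lines were compared for each gene, and 0 members were called, against 0% of all genes by edgeR; 0 members and 159 of all genes had an unadjusted p under 0.05.

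**Figure D4:**
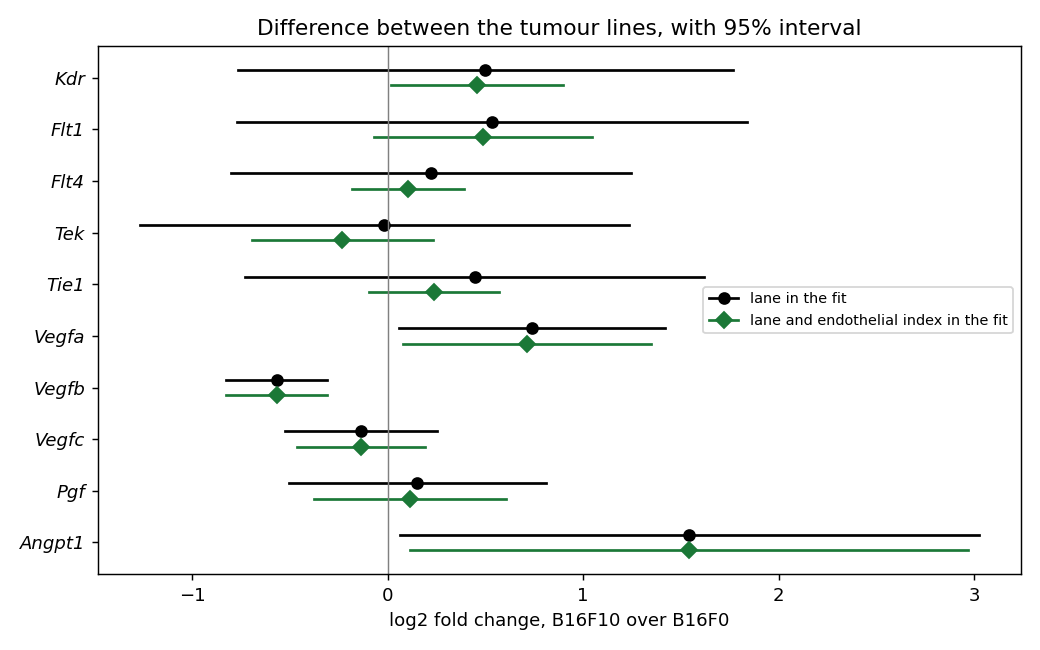
Log2 fold change of each gene, B16F10 over B16F0, with its 95% interval, from the fit with lane (black) and the fit with lane and endothelial index (green). Vegfb lies below 0 in both fits at -0.57, and the intervals of the receptors narrow in the second.

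Vegfb, a ligand of Flt1 known for roles in heart and fat metabolism (chr19:6982473-6987651, -), had 38.2, 34.9, 26.8, 26.7, 31.3, 45.3 and 35.8 CPM in B16F10 replicates 1 to 7, against 56.2, 39.2, 40.2, 56.7 and 52.1 CPM in B16F0 replicates 1 to 5. The means were 34.1 ± 6.61 CPM in B16F10 and 48.9 ± 8.58 CPM in B16F0 (SD, n = 7 and 5). Its log2 fold change was -0.57 ± 0.12 (SE; -0.83 to -0.31; edgeR adjusted p = 0.0227), and it was -0.57, -0.62 and -0.55 in lanes 1, 2 and 6. Within each lane every B16F10 library lay below every B16F0 library, a separation that 3.3% of tested genes showed in this direction and 2.82% in the other. At equal index the value was -0.57 (-0.82 to -0.31, edgeR adjusted p = 0.0185), where 2.06% of genes were called lower and 1.64% higher. That call was lost in 8 of 23 alternatives, among them no lane term (adjusted p = 0.110), no lane 2 (0.0852) and no Cdh5-rich libraries (0.166). In the authors' deposited table the log2 fold change of Vegfb was -0.58 with an FDR of 0.0498.

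The direction of Vegfb held in all 25 alternatives tried, from -0.63 to -0.50, and the call held in 13 of them. The call was lost without the lane term (edgeR adjusted p = 0.168), without lane 2 (0.149) and without the 3 Cdh5-rich libraries (0.0518). It was also lost when B16F10 replicate 2, 4 or 7 or B16F0 replicate 1, 2, 4 or 5 was left out, with adjusted p from 0.0552 to 0.0869, and over all alternatives the adjusted p ran from 0.000541 to 0.313.

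Vegfa, the principal ligand of Kdr and a gene induced by hypoxia (chr17:46016993-46032369, -), had 362, 216, 118, 289, 416, 321 and 391 CPM in B16F10, against 87.1, 71.6, 169, 282 and 350 CPM in B16F0. The means were 302 ± 105 CPM in B16F10 and 192 ± 122 CPM in B16F0 (SD, n = 7 and 5), and the lines overlapped. Its log2 fold change was 0.74 ± 0.31 (0.056 to 1.42; unadjusted p = 0.036, edgeR adjusted p = 0.290), which did not pass. It was 0.75, 1.68 and 0.25 in lanes 1, 2 and 6, largest on lane 2, where line and name prefix coincide. The level moved with the lane: all 5 libraries of lane 6 were at 282 to 416 CPM, while lane 1 ran from 71.6 to 289 CPM and lane 2 from 87.1 to 362 CPM. The authors' deposited table gives 0.72 with an FDR of 0.112.

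**Figure D5:**
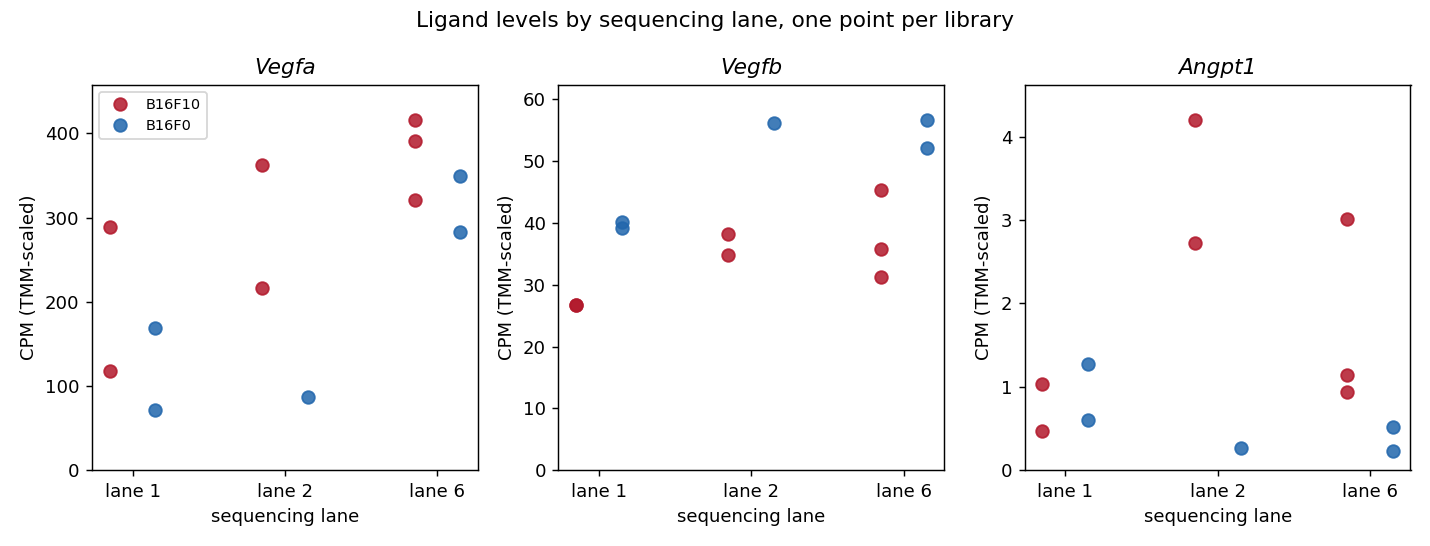
Levels of Vegfa, Vegfb and Angpt1 in CPM by sequencing lane, 1 point per library, with B16F10 left of B16F0 in each lane. Vegfb is lower in B16F10 in each lane, Vegfa is at 282 CPM or above throughout lane 6, and the highest Angpt1 values are 2 B16F10 libraries of lane 2 and 1 of lane 6.

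Angpt1, the activating ligand of Tek that mural cells commonly make (chr15:42424723-42676977, -), rested on few reads. It had 17, 42, 17, 4, 26, 19 and 15 counts in B16F10 replicates 1 to 7, against 4, 10, 15, 4 and 5 counts in B16F0 replicates 1 to 5. In CPM these were 2.73, 4.2, 1.03, 0.474, 3.01, 0.937 and 1.14 in B16F10, against 0.268, 0.605, 1.28, 0.226 and 0.524 in B16F0. The log2 fold change was 1.54 ± 0.68 (0.063 to 3.02; unadjusted p = 0.0423, edgeR adjusted p = 0.310), and it was -0.27, 3.06 and 1.69 in lanes 1, 2 and 6, largest on lane 2, where line and name prefix coincide. Without lane 2 it was 0.99 (adjusted p = 0.762).

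Reads of genes silent in most tissues were also high in the libraries highest in Angpt1. The summed CPM of 1501 olfactory, vomeronasal and taste receptor genes was 27.1 to 960 in B16F10 and 10.6 to 134 in B16F0. The 3 libraries highest in Angpt1, B16F10 replicates 2, 5 and 1, were the 3 highest in this background, at 778, 340 and 960 CPM. The other 9 libraries did not keep this order: B16F10 replicate 4 ranked 4 in background and 10 in Angpt1, and B16F0 replicate 3 ranked 8 and 4. With the log2 of this sum added to the model, an alternative chosen after seeing the data, the log2 fold change was 0.68 for Angpt1 (edgeR adjusted p = 0.628), 0.15 for Vegfa (0.826) and -0.50 for Vegfb (0.105). The sum itself averaged 356 ± 368 CPM in B16F10 and 56.8 ± 49.5 CPM in B16F0. Line and background therefore cannot be told apart by that fit, where Kdr, Flt1, Flt4, Tie1 and Pgf also changed sign. Whether background reads raised Angpt1 was not tested. The exons of Angpt1 overlap those of the antisense gene Gm17473, and no source used here gives the strand setting of the counting, so reads of the 2 genes cannot be told apart. Pericyte markers, 8 genes, summed to 94.5 to 412 CPM in B16F10 and 70.9 to 368 CPM in B16F0, fibroblast markers (6) to 110 to 964 CPM and 107 to 340 CPM, and skeletal muscle markers (6) to 54.6 to 733 CPM and 15.5 to 26.6 CPM, where 3 of the muscle markers had a library at 0. The muscle sum was mostly Ttn, at 191 ± 202 CPM in B16F10 and 18.4 ± 5.11 CPM in B16F0. Mylpf, the other muscle marker tested, averaged 1.56 CPM in both lines (log2 fold change -0.054, edgeR adjusted p = 0.972). Acta1, Ckm, Myh4 and Tnnt3 did not pass the filter and averaged 0.352 to 9.72 CPM in B16F10 and 0.144 to 1.18 CPM in B16F0. The part of pericytes, fibroblasts and muscle in the level of Angpt1 was not tested.

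Vegfc and Pgf did not pass the test between the lines. Vegfc, the ligand of Flt4 (chr8:54077606-54187096, +), had 11.4, 11.7, 8.83, 13.2, 10.5, 9.22 and 9.25 CPM in B16F10, against 10.8, 8.77, 15.1, 12.7 and 10.7 CPM in B16F0, and the log2 fold change was -0.14 (-0.53 to 0.25, edgeR adjusted p = 0.791). Its span over 12 libraries, 1.72-fold, was the narrowest of the 10 genes. Pgf (chr12:85166635-85177790, -) had 20.8, 20.4, 10.95, 31.6, 32.5, 32.2 and 20.9 CPM in B16F10, against 11.9, 13.4, 35.8, 23.6 and 28.4 CPM in B16F0, a log2 fold change of 0.15 (-0.50 to 0.81, adjusted p = 0.875), and -0.23, 0.78 and 0.11 in lanes 1, 2 and 6. Its 2 lowest B16F0 libraries and its lowest B16F10 library were on lanes 1 and 2.

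The genes whose pattern was most like those of Kdr, Vegfa and Vegfb were found by Pearson's r of log2 CPM over the 12 libraries, among 10471 genes that averaged 5 CPM or more. These values describe libraries that share lanes and endothelial content. For Kdr they were Cd93, a receptor of endothelial and myeloid cells (r = 0.984), Dchs1, a cadherin (0.983), and Lamb1, a laminin chain (0.983). For Vegfa they were Ccdc171 (0.978), Fam160a2 (0.976) and Gprasp1 (0.976), and for Vegfb Glt8d1 (0.936), Olfml1 (0.925) and Fndc3a (0.912).

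Partners of the VEGF and TIE receptors were described from a list of 12 genes, of which 9 were tested, 2 were higher and 0 lower in B16F10. Nrp2, a co-receptor of Flt4 and Kdr for VEGF ligands, averaged 436 ± 46.1 CPM in B16F10 and 217 ± 50.7 CPM in B16F0 (SD, n = 7 and 5; log2 fold change 1.00 ± 0.18, edgeR adjusted p = 0.00834). Shb, an adaptor that binds activated Kdr, averaged 8.20 ± 3.10 CPM in B16F10 and 2.23 ± 0.503 CPM in B16F0 (1.71 ± 0.28, adjusted p = 0.00457). Neither followed the endothelial index, with slopes of 0.19 and 0.17. Of the 9 tested partners 5 followed it, namely Angpt2, a context-dependent antagonist of Tek made by activated endothelium (0.64), the co-receptor Nrp1 (0.53), the phosphatase Ptprb that acts on Tek (0.83), Angptl4 (0.79) and Crim1 (0.54).

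Angpt2 averaged 204 ± 173 CPM in B16F10 and 239 ± 253 CPM in B16F0, which came to 0.053 on the log2 scale (edgeR adjusted p = 0.969). Ptprb averaged 179 ± 162 and 383 ± 245 CPM in the same groups (-1.04, adjusted p = 0.383), and at equal index it was at -1.24 (edgeR adjusted p = 0.0837). Plcg1, a phospholipase that Kdr activates, averaged 170 ± 25.2 and 202 ± 22.3 CPM (-0.26, adjusted p = 0.431). At equal index DESeq2 called 2 partners higher and 1 lower, and edgeR 2 higher and 0 lower. The share of all genes that DESeq2 called at equal index was not taken. The median log2 fold change of the 9 was 0.10. Figf (Vegfd), Angpt4 and Sh2d2a were too low to be tested.

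Genes of vessels that respond to VEGF or to FOXO1, 12 in number, held no call in either direction by edgeR, DESeq2 or limma-voom, with 0 higher and 1 lower at an unadjusted p under 0.05 by each. At equal index DESeq2 called 1 lower, and its share over all genes was not taken. Of these 12, 6 followed the index: Esm1, Apln, Dll4, Nos3, Hlx and Cxcr4. The 4 with the smallest p were Adamts1, a matrix protease (262 ± 59.4 CPM in B16F10 and 379 ± 97.6 CPM in B16F0, log2 fold change -0.53, edgeR adjusted p = 0.219, and 0.0399 with the library name prefix in place of the lane), Rcan1, an inhibitor of calcineurin (0.20, 0.628), Egr3 (0.47, 0.701) and the Notch ligand Dll4 (0.57, 0.710). The median log2 fold change was 0.18.

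Of 12 hypoxia genes, 1 was higher in B16F10 and 0 lower. Car9, carbonic anhydrase 9, averaged 129 ± 23.7 CPM in B16F10 and 64.8 ± 8.21 CPM in B16F0 (SD, n = 7 and 5; log2 fold change 1.00, edgeR adjusted p = 0.00513). Pdk1 (-0.36, adjusted p = 0.286), Adm (-0.44, 0.322) and Epas1 (0.76, 0.490) had the next smallest p. Epas1, the HIF subunit typical of endothelium, was the only one of the 12 to follow the index, with a slope of 0.76. The median log2 fold change was -0.052.

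Outside Cdh5 and Pecam1, which make up the index, 14 of 17 pan-endothelial markers followed it, with a median slope of 0.81. Between the lines 0 of the 17 were called. At equal index DESeq2 called 1 of the 19 pan-endothelial markers, index genes included, higher and 1 lower, and edgeR called 0. The DESeq2 share over all genes at equal index was not taken. Melanocytic markers had a median slope of -0.24, and 1 of 10, Oca2, was lower in B16F10. The call for following was not limited to endothelial markers. Of 8 pericyte markers 2 followed the index, Kcnj8 (slope 0.65, edgeR adjusted p = 0.0279) and Abcc9 (0.62, 0.00959). Of fibroblast, macrophage, platelet and keratinocyte markers 0 did. Of lymphatic, pericyte, fibroblast, macrophage, platelet and keratinocyte markers 0 were called by edgeR between the lines. At equal index edgeR called Prox1 lower (-0.59, adjusted p = 0.0439), and it called Pdgfra higher without the filter (0.0384) and Notch3 higher without B16F0 replicate 5 (0.0348). DESeq2 and limma-voom called Prox1 lower and Notch3 and Pdgfra higher, and DESeq2 also Cspg4. Of 2 muscle markers tested, Ttn was higher in B16F10 (edgeR adjusted p = 0.00791) and Mylpf was not called (0.972). Whether other cell types contributed to the levels of the ligands was not tested.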

How the data were processed

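Libraries of ribosome-bound mRNA were made with a ScriptSeq kit, per the labels' protocols. Read counts for each gene symbol, deposited by the authors as whole numbers, cover 12 libraries. Per the submitters' processing notes, cutadapt 1.16, STAR 2.2.1, featureCounts 1.6.0, edgeR, R 3.3.2 and the build mm10 were used. No source used here gives the annotation or strand setting, so overlapping genes may share reads. The authors' deposited comparison table (log2 fold changes and p-values, other units) was read with its decimal commas as points. A deposited table of normalized values had lost its decimal marks and was left out.

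Groups came from the labels and lanes from the library names in them. Of 24421 symbols 1069 had no count, and 13534 passed filterByExpr of edgeR 4.0.16 (minimum count 10). Counts were scaled by TMM and tested in R 4.3.3 with edgeR's quasi-likelihood F test, lane and line in the model, with Benjamini-Hochberg adjustment over all tested genes at 0.05. Standard errors were taken as |log2 fold change|/sqrt(F). The biological coefficient of variation was 0.318, and 1 count was worth 0.0493 to 0.160 CPM in B16F10 and 0.0564 to 0.105 CPM in B16F0, which limits Angpt1 most. The index used log2 CPM with a prior count of 2. Alternatives were other lane terms, scaling (RLE) and filters, DESeq2 1.42.0, limma-voom (limma 3.58.1), other indices and left-out libraries. The fit with background reads, the slope differences and settings for listed genes were chosen after seeing the data. Over 31 pairs of libraries of a group the lowest chi-square per degree of freedom was 7.07, so none agreed within sampling noise. The tests were also run on simulated counts with planted changes and no lane effects, which gives no support for the calls here.

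The members and gene lists were chosen with earlier results of these data known. All 10 members were named. Of each pathway list every called gene and the 4 with the smallest p were named, and the genes that followed the index were named in addition after their values were seen. Promoter sequences and starts are from RefSeq (GRCm38.p6), and gene coordinates and exon lengths from GENCODE M21.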

Additional observations from a re-analysis of the deposited data

Results flagged for a closer look

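Of 20 groups of libraries, 1 per gene and line, 6 held a library whose gap to its nearest neighbour exceeded Dixon's 95% critical value. For a single group of normally distributed values chance gives about 1 in 20. The groups were not independent, as all receptors were flagged in the same library, B16F0 replicate 3, and CPM was not logged. The 6 are therefore not set against chance. All 6 were receptors in Cdh5-rich libraries. Kdr was at 974 CPM in B16F10 replicate 4, against 463 CPM in the next library. In B16F0 replicate 3, Kdr was at 996 CPM against 161 CPM in the next library, and Flt1 at 530 CPM against 118 CPM. Flt4 was at 217 CPM against 67.0 CPM, Tek at 88.0 CPM against 27.2 CPM and Tie1 at 193 CPM against 57.1 CPM in that library and the next. No ligand was among the 6.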

How the results depend on the processing

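The number of genes called between the lines was 375 (176 higher and 199 lower in B16F10). It was 58 with the replicate block in place of the lane (30 and 28), 630 with the library name prefix (325 and 305), 852 by DESeq2 (407 and 445), 177 without lane 2 (96 and 81) and 236 without the 2 libraries highest in Rn45s (111 and 125). Without the lane term 131 were lower. Leaving out each library in turn gave 203 to 446 calls, 104 to 199 higher and 99 to 247 lower. The number of genes following the index, 431, was 54 with the replicate block, 0 without the 3 Cdh5-rich libraries and 282 to 716 with single libraries left out. The causes were not tested.

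Replicate numbers did not pair the libraries: same-numbered libraries correlated at -0.27, -0.27, -0.24, -0.29 and 0.32 in their deviations from the group means, and none correlated best with its own number. Under the replicate block the call of Vegfb was lost (-0.63, edgeR adjusted p = 0.313), as were the slope calls of Kdr (0.0524), Flt1 (0.231) and Flt4 (0.0683). Between the lines the calls of Nrp2 (0.134), Shb (0.194), Car9 (0.194), Ttn (0.101) and Oca2 (0.143) were lost, and at equal index that of Vegfb (0.394). In slope between the lines 2 members then differed, Flt1 (-1.51, 0.022) and Vegfa (-1.68, 0.0145), against 0 without the block. The share of all genes called in slope difference under the block was not taken. That fit also leaves few residual degrees of freedom, so the count is not read as a result about these members.

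Members that were not called between the lines also changed sign. With background reads as a covariate, the log2 fold change was -0.26 for Kdr, -0.45 for Flt1, -0.068 for Flt4, -0.14 for Tie1, -0.36 for Pgf, -0.049 for Egr3, -0.43 for Dll4, -0.072 for Epas1, -0.38 for Angpt2 and -0.13 for Nrp1. Without the 3 Cdh5-rich libraries it was -0.20 for Flt4 and -0.12 for Tie1, and without the Rn45s-rich ones -0.28 for Flt4, -0.15 for Tie1, -0.11 for Angpt2 and -0.085 for Nrp1. Tek was at 0.025 with the replicate block, 0.18 with the prefix and 0.25 without lane 2, and Pgf at -0.030 with the prefix and -0.0091 without lane 2. Angpt2 was at -0.23 without the lane term and -0.029 without the filter, and Nrp1 at -0.019 without the lane term. With single libraries left out, Flt4 ran from -0.13 to 0.55, Tek from -0.57 to 0.30, Tie1 from -0.0025 to 0.79, Pgf from -0.028 to 0.42 and Angpt2 from -0.18 to 0.42. At equal index Pgf was at -0.014 with the replicate block, -0.12 without lane 2 and -0.13 to 0.27 with single libraries left out.

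The slope of Vegfa was -0.073 without the lane term, -0.034 with the replicate block and -0.74 without the 3 Cdh5-rich libraries, where Vegfb had 0.25, Pgf -0.12 and Angpt1 -1.41. Vegfb had 0.012 without the Rn45s-rich libraries and -0.049 to 0.042 with single libraries left out, and Angpt1 -0.0038 to 0.54. The slope of Pgf was called without the Rn45s-rich libraries (0.60, edgeR adjusted p = 0.0279) and without B16F10 replicate 5 (0.56, 0.0386). The difference in endothelial index between the lines was 0.11 without lane 2 and -0.41 to 0.36 with single libraries left out. Depth limits Angpt1, at 4 to 42 counts a library.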
